A study of Mus musculus with 17 samples.

Results

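The genes described here are 40 genes of mitosis, the step of the cell cycle in which copied chromosomes are separated and the cell divides. They were chosen by gene symbol, and every array probe annotated with one of the symbols was taken, which gave 78 of 45281 probes and 39 of 19057 genes. The remaining gene, Ccnb1 (cyclin B1), had no probe in the annotation used here. The study used 17 Illumina mouse BeadChips to read messenger RNA from C57Bl/6 bone marrow cells infected with MXW retroviral vectors and sorted as viable cells with the EGFP marker. Dataset A held 3 arrays with the microRNA cluster 99b/let-7e/125a, 2 arrays with miR-155 and 3 arrays with the empty vector. Dataset B held 3 arrays with the same cluster, 3 arrays with miR-125a alone and 3 arrays with the empty vector. The datasets share no array. Cells of all groups came from mice given 150 mg/kg 5-fluorouracil, which kills dividing cells, with marrow taken 4 days later. All were grown with Flt3 ligand, interleukin-11 and stem cell factor and collected 5 days after the first infection. Each array measured a mixed population of infected marrow cells, and the labels do not name an animal, culture or age for any array.

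Entry into mitosis is driven by Cdk1 bound to cyclins A and B, and is released by CDC25 phosphatases. Polo-like and Aurora kinases then build the spindle, the spindle checkpoint holds the cell until all kinetochores are attached, and the anaphase-promoting complex with Cdc20 destroys securin and cyclin B so that the chromosomes part. Messenger RNAs of these genes are low in resting cells and high in G2 and M phase, so that they are widely read as a measure of dividing cells, in marrow as elsewhere.

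The microRNAs in the vectors are shown because their seeds, the bases that pair with target messenger RNAs, set them apart. The mature 5p sequences, from RefSeq on build GRCm38.p6, carry the seed (bases 2 to 8) in capitals, and the 4 seeds all differ. The labels do not say which arm a vector yields.
mmu-miR-99b-5p (chr17:17830194-17830215, plus strand): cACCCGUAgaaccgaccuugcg
mmu-let-7e-5p (chr17:17830366-17830387, plus strand): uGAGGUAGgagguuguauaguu
mmu-miR-125a-5p (chr17:17830817-17830840, plus strand): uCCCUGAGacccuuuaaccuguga
mmu-miR-155-5p (chr16:84714143-84714165, plus strand): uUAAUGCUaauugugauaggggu

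A probe counted as detected on an array when its detection p-value, against the negative control beads, was under 0.05. The share of probes detected on an array ranged from 34.8% to 38.7% (dataset A) and from 34.2% to 38.9% (dataset B). Each gene was read from the probe that was brightest over both datasets, as log2 of the background-corrected and quantile-normalized intensity, called its log2 level here. Of the mitosis genes, 26 were detected on all 17 arrays. Levels were tested for 31 in dataset A and for 32 in dataset B, where Pttg1 was added. Ccnb2, Bub1, Cenpe, Kif20a, Nuf2, Racgap1 and Hmmr have a probe but were detected on too few arrays for a test in either dataset. For these 7 genes the arrays give no measure of change. Of the 78 probes, 40 were detected on every array and 15 on none.

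With quantile normalization, no mitosis gene passed the test against the empty vector, and with median scaling some passed for miR-125a only. With the cluster in dataset A, 0 of 31 passed the limma test at an adjusted p under 0.05, a threshold that 0.643% of all 10259 genes tested passed (32 higher, 34 lower). With miR-155, 0 of 31 passed, against 1.05% of all genes (20 higher, 88 lower). With the cluster in dataset B, 0 of 32 passed, against 0.0106% of 9390 genes, which is 1 gene. With miR-125a, 0 of 32 passed and 0% of all genes did. Median scaling of the same arrays passed 8 of 32 mitosis genes (25%) with miR-125a, among them Plk1, Anln and Ttk, beside 18.8% of all genes, and it moved the median change of all genes there to 0.48. It passed 0 mitosis genes in the other 3 comparisons. The unadjusted p was under 0.05 for 3 mitosis genes with the cluster in dataset A, 2 with miR-155, 1 with the cluster in dataset B and 1 with miR-125a, against shares over all genes of 7.81%, 8.97%, 9.76% and 10.6% of all genes. As whole cell populations were measured, a change in the share of dividing cells and a change in RNA per dividing cell cannot be told apart.

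The log2 changes of the mitosis genes lay around 0 and close to those of all genes. Their median change with the cluster in dataset A was 0.00 against 0.00 for all genes tested, with a range from -0.43 to 0.39. With miR-155 the median was -0.05 against 0.01 for all genes, with a range from -0.44 to 0.42. With the cluster in dataset B it was 0.06 against 0.02, from -0.14 to 0.39, and with miR-125a 0.05 against 0.03, up to 0.42. Cenpf was undetected on all empty-vector arrays of dataset B and Pttg1 on all miR-125a arrays, so their changes have only a bound on one side. Without them the medians were 0.06 with the cluster and 0.05 with miR-125a, where the lowest change was -0.19 (Ndc80). The number of positive changes was 16 of 31, 13 of 31, 20 of 32 and 21 of 32 in the same order, where all genes tested gave 50.3%, 50.9%, 54.9% and 56.6%. These signs hold for quantile normalization: median scaling moved the median change of all genes to -0.08, -0.31, 0.32 and 0.48 in the same order. With this common shift 7 of 31, 12 of 31, 11 of 32 and 10 of 32 changes took the other sign. The largest of these had sizes of 0.06, 0.31, 0.14 and 0.19 with quantile normalization. The 2 comparisons of each dataset share its 3 empty-vector arrays.

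**Figure D1:**
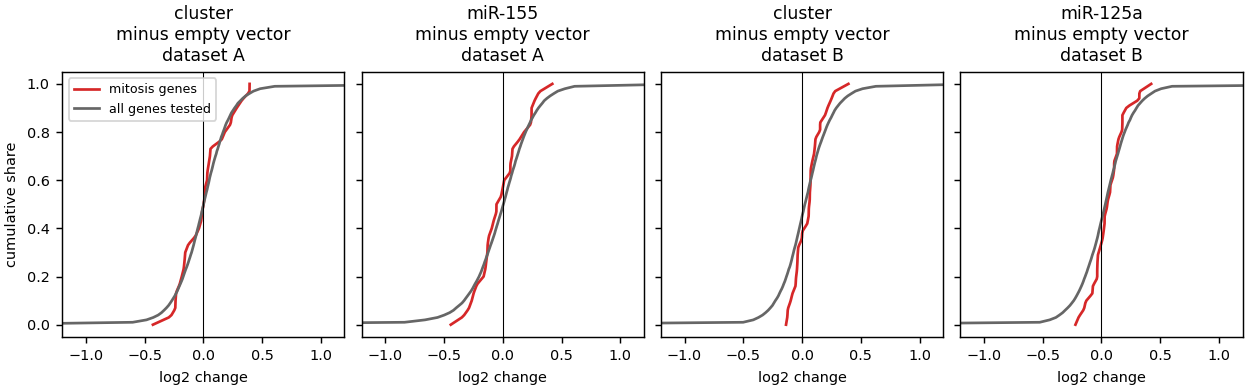
Cumulative share of genes (y axis) against log2 change from the empty vector (x axis), for the mitosis genes tested (red) and for all genes tested (grey), in the 4 comparisons with the empty vector. The red curves cross the middle of the scale near 0, at medians of 0.00, -0.05, 0.06 and 0.05, and end inside the grey tails.

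The intervals given here are those of quantile normalization and of the brightest probe of each gene. They do not bound the changes of its other probes. For all 31 mitosis genes tested with the cluster in dataset A, the 95% interval of the change lay within a 2-fold rise or fall, as it did for 97.8% of all genes. For 19 of the 31 it lay within 1.5-fold, against 64.9% of all genes. With miR-155, measured on 2 arrays, all 31 intervals lay within 2-fold (94.8% of all genes) and 15 within 1.5-fold (47.3%). In dataset B all 32 intervals lay within 2-fold with each vector (96.9% of all genes with the cluster, 96.8% with miR-125a), and 28 within 1.5-fold with each (69.8% and 68.4%). Without Cenpf and Pttg1, where these have only a bound, 31 of 31 and 30 of 30 lay within 2-fold. With median scaling the changes with miR-125a were larger, at 0.89 for Plk1, 0.89 for Anln and 0.80 for Ttk, so the bounds do not carry over to that scaling. 

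**Figure D2:**
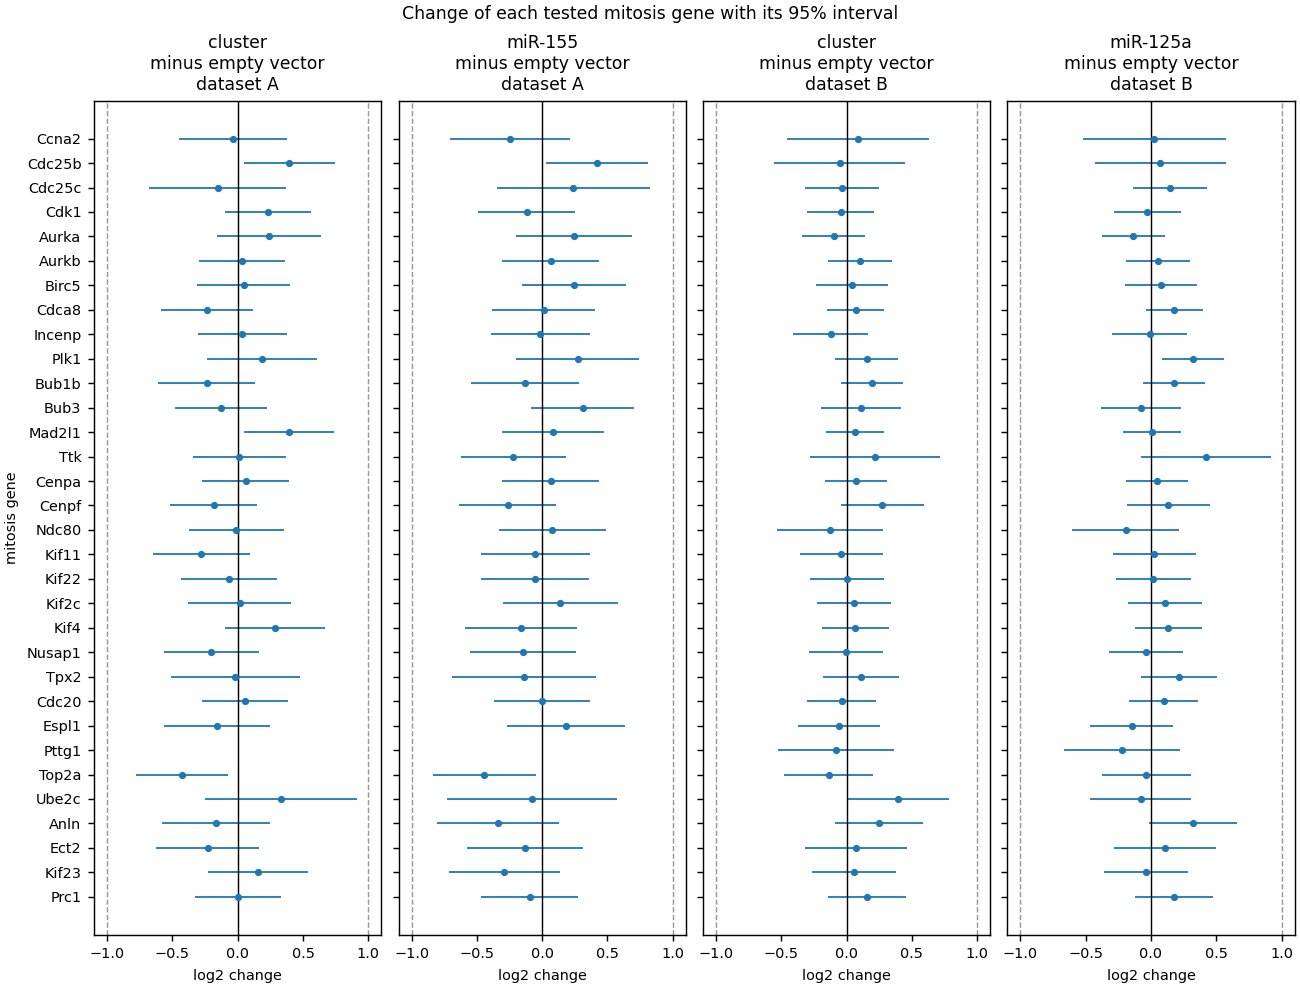
Log2 change from the empty vector (x axis, points) with its 95% interval (bars) for the brightest probe of each mitosis gene tested (rows, grouped by role), in the 4 comparisons. Dashed lines mark a 2-fold change either way, and no interval reaches them, though Cenpf in dataset B and Pttg1 with miR-125a have a group without a detected array; the widest are those of Ube2c in dataset A and Ccna2 in dataset B.

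Averaged over the mitosis genes, no array stood far from the others. The mean deviation of an array from the average of its dataset was 0.003 ± 0.037 with the cluster (SD, n = 3), -0.012 ± 0.0098 with miR-155 (SD, n = 2) and 0.006 ± 0.079 with the empty vector (SD, n = 3) in dataset A. In dataset B it was 0.016 ± 0.032 with the cluster, 0.021 ± 0.013 with miR-125a and -0.037 ± 0.052 with the empty vector (SD, n = 3 each). Both extremes of dataset A were empty-vector arrays: in array 2, 22 of 31 genes lay above their average, and in array 1, 9 of 31 did. The lowest array of dataset B was empty-vector array 5, with 10 of 32 genes above their average. Within groups the mitosis genes varied with a median SD of 0.186 in dataset A, against 0.215 for all genes, and of 0.143 in dataset B, against 0.186. The steadiest were Cdc20 in dataset A (SD 0.069) and Cdca8 in dataset B (SD 0.039), and the most variable were Ube2c (SD 0.510) and Ccna2 (SD 0.368). As a description, the median correlation between the residuals of 2 mitosis genes was 0.04 over 465 pairs and 8 arrays in dataset A, and -0.02 over 496 pairs and 9 arrays in dataset B.

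**Figure D3:**
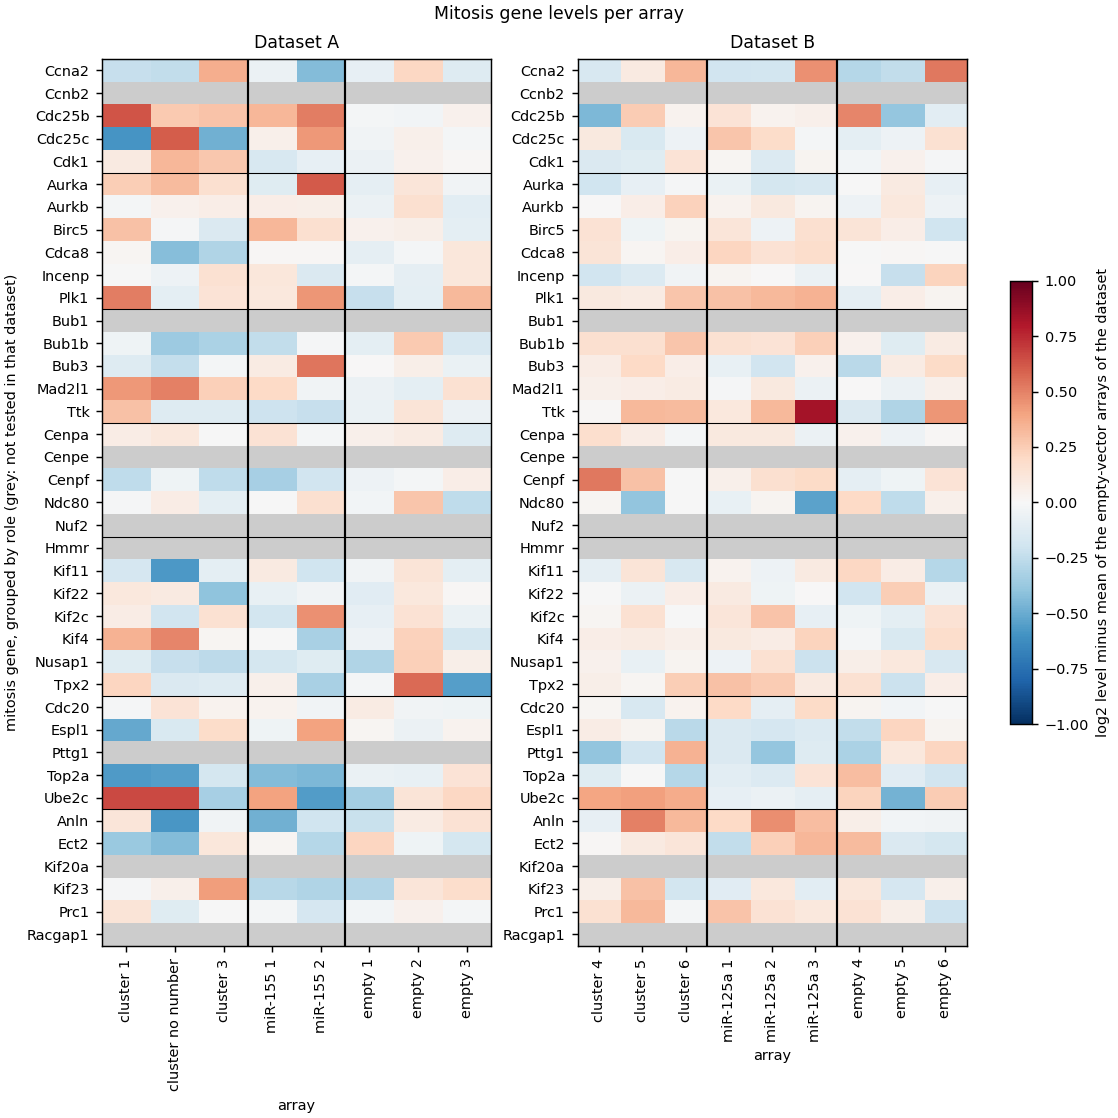
Log2 level of each mitosis gene (rows, grouped by role) on each array (columns), as the difference from the mean of the empty-vector arrays of the same dataset; red is higher, blue is lower, grey was not tested. No column is of one colour: the genes with the strongest shades, such as Ube2c, Cdc25b and Top2a in dataset A, differ also between arrays of one vector.

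Beyond their role, many of these genes share short promoter motifs. Windows of 300 bases, from 250 before to 50 after the start of transcription, were available from RefSeq (build GRCm38.p6) for 34 of the 40 genes and for 27025 genes in all, but not for Ccna2, Cdc25c, Aurkb, Incenp, Kif20a and Tpx2. The motif TTTGAA, a form of the cell cycle homology region found in promoters of G2 and M phase genes, occurred on either strand in 25 of the 34 windows (73.5%), against 20.2% of all windows. CCAAT, the box bound by NF-Y, occurred in 26 of 34 (76.5%), against 41.1%, and both in 22 of 34 (64.7%), against 8.97%. TTTAAA, another form of the homology region, occurred in 9 of 34 (26.5%), against 14.9%. The E2F element forms TTTGGCGC and TTTCCCGC occurred in 0 of 34 windows, against 0.585% and 1.24% of all windows. None of these motifs contains another, and a match describes letters only. The 100 bases before the start are shown for 4 genes whose levels are given below, since they range from several motifs to none, with TTTGAA or its reverse TTCAAA and CCAAT or its reverse ATTGG in capitals.
Cdk1 (chr10:69352913-69353012, minus strand): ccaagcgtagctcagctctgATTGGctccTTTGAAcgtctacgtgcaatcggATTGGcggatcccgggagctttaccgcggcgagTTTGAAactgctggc
Top2a (chr11:99024190-99024289, minus strand): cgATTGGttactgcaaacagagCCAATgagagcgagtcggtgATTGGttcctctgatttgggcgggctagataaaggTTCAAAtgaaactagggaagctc
Cdc20 (chr4:118437344-118437443, minus strand): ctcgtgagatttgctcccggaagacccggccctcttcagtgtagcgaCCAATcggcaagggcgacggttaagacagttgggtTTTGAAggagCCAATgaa
Mad2l1 (chr6:66535121-66535220, plus strand): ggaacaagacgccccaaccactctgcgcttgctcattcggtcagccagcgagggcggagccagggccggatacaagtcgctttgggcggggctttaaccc
In Cdk1, TTTGAA begins 71 and 15 bases before the start, and in Top2a and Cdc20 the single match begins 23 and 18 bases before it. The Mad2l1 window holds neither motif.

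Among the genes of the entry switch (Ccna2, Cdk1, Cdc25b and Cdc25c were tested), 0 of 4 passed in any of the 4 comparisons. Cdk1, the kinase that starts mitosis, had log2 levels of 10.54, 10.78 and 10.72 with the cluster, 10.29 and 10.37 with miR-155, and 10.39, 10.49 and 10.46 with the empty vector in dataset A. Its cluster arrays all lay above the empty-vector arrays and its miR-155 arrays all below them, by 0.23 ± 0.16 and -0.12 ± 0.17 (SE; adjusted p = 0.817 and 0.911). In dataset B, Cdk1 had 10.54, 10.56 and 10.82 with the cluster, 10.71, 10.55 and 10.71 with miR-125a, and 10.66, 10.73 and 10.68 with the empty vector, with overlap of all groups (changes of -0.04 ± 0.12 and -0.03 ± 0.12). Cdc25b, a phosphatase that removes the inhibiting phosphates from Cdk1, had the highest change of any mitosis gene in both comparisons of dataset A. Its levels were 5.55, 5.19 and 5.20 with the cluster and 5.25 and 5.43 with miR-155, against 4.90, 4.89 and 4.96 with the empty vector. Neither vector group overlapped the empty vector, yet the changes of 0.39 ± 0.16 and 0.42 ± 0.18 did not pass over all genes (adjusted p = 0.527 and 0.495). In dataset B the change of Cdc25b was -0.05 ± 0.23 with the cluster and 0.07 ± 0.23 with miR-125a, and its probe was detected on 2 of 3 cluster, 3 of 3 miR-125a and 2 of 3 empty-vector arrays. Cdc25c, a related phosphatase, varied between arrays of one vector, with levels of 5.73, 6.92 and 5.84 with the cluster in dataset A. Its changes there were -0.15 with the cluster and 0.24 with miR-155, and in dataset B -0.03 with the cluster and 0.15 with miR-125a. A second Cdc25c probe, detected on all arrays, gave 0.36 ± 0.21, 0.38 ± 0.23, 0.34 ± 0.14 and 0.38 ± 0.14 in the same order.

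Of the mitotic kinases and the chromosomal passenger complex, which corrects faulty attachments of chromosomes, all 6 genes (Plk1, Aurka, Aurkb, Birc5, Incenp and Cdca8) were tested and 0 passed. Plk1, which acts from spindle assembly to cytokinesis, gave the lowest adjusted p of all mitosis genes. Its log2 levels in dataset B were 9.27, 9.26 and 9.45 with the cluster, 9.47, 9.50 and 9.53 with miR-125a, and 9.08, 9.24 and 9.21 with the empty vector. Both vector groups lay above the empty-vector arrays, by 0.15 ± 0.11 with the cluster (adjusted p = 0.712) and by 0.32 ± 0.11 with miR-125a (adjusted p = 0.340). In dataset A the Plk1 levels of 9.87, 9.26 and 9.50 with the cluster and of 9.47 and 9.80 with miR-155 overlapped those of 9.13, 9.26 and 9.69 with the empty vector. The changes there were 0.18 ± 0.20 and 0.27 ± 0.22 (adjusted p = 0.928 and 0.796). Aurkb, the kinase of the passenger complex, had 9.93, 9.995 and 10.02 with the cluster, 10.02 and 10.01 with miR-155, and 9.89, 10.11 and 9.85 with the empty vector in dataset A. In dataset B it had 9.77, 9.83 and 9.999 with the cluster, 9.80, 9.87 and 9.79 with miR-125a, and 9.71, 9.87 and 9.72 with the empty vector. Its groups overlapped in every comparison, and its changes ran from 0.03 to 0.10. Birc5 (survivin), the subunit that brings the complex to centromeres, had 10.68, 10.38 and 10.24 with the cluster, 10.72 and 10.55 with miR-155, and 10.43, 10.45 and 10.29 with the empty vector. Only its 2 miR-155 arrays stood clear of the empty vector, by 0.24 ± 0.19 (adjusted p = 0.784). In dataset B, Birc5 gave 0.04 ± 0.13 with the cluster and 0.08 ± 0.13 with miR-125a, neither past the threshold. Its other 2 probes, detected on all arrays, had the opposite sign there, at -0.23 and -0.18 with the cluster and -0.24 and -0.15 with miR-125a, so that no direction is given for Birc5. Incenp, the scaffold of the complex, was among the lowest changes with the cluster in dataset B, at 8.77, 8.83 and 8.93 against 8.97, 8.74 and 9.19 with the empty vector (-0.12 ± 0.13, groups overlapping).

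In the spindle checkpoint, Bub1b, Bub3, Mad2l1 and Ttk were tested and 0 of 4 passed in any comparison. Mad2l1 (Mad2), which binds Cdc20 and so holds back anaphase, had 10.28, 10.35 and 10.09 with the cluster and 10.05 and 9.81 with miR-155, against 9.79, 9.76 and 10.01 with the empty vector, in dataset A. All 3 cluster arrays lay above the empty-vector arrays, by 0.39 ± 0.16 with a 95% interval from 0.04 to 0.74 (adjusted p = 0.527), and the miR-155 arrays overlapped them. In dataset B, Mad2l1 had 10.25, 10.27 and 10.28 with the cluster, 10.20, 10.30 and 10.14 with miR-125a, and 10.21, 10.15 and 10.25 with the empty vector, so that the change with the cluster was 0.06 ± 0.10. Bub1b (BubR1), another Cdc20 inhibitor, was among the lowest changes with the cluster in dataset A, at 9.97, 9.65 and 9.70 against 9.92, 10.27 and 9.85 with the empty vector (groups overlapping, -0.24 ± 0.17, adjusted p = 0.840). In dataset B its cluster and miR-125a arrays all lay above the empty-vector arrays instead, by 0.20 ± 0.11 and 0.18 ± 0.11 (adjusted p = 0.610 and 0.608). A dimmer Bub1b probe gave 0.30 ± 0.21 with the cluster in dataset A, and 0.0035 and -0.0049 with the cluster and miR-125a in dataset B. Bub3, which docks Bub1 and Bub1b on kinetochores, had 7.15 and 7.61 with miR-155 against 7.08, 7.13 and 7.01 with the empty vector (0.31 ± 0.19, adjusted p = 0.690), where array 2 stood well above array 1. Ttk (Mps1), the kinase that starts the checkpoint signal, had the highest change with miR-125a, at 5.78, 6.00 and 6.51 against 5.53, 5.38 and 6.12 with the empty vector. The groups overlapped and the change was 0.42 ± 0.22 (adjusted p = 0.543).

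Of the centromere and kinetochore genes, Cenpa, Cenpf and Ndc80 were tested and 0 of 3 passed in any comparison. Cenpa, the histone H3 variant that marks centromeres, gave changes between 0.05 and 0.07 in all 4 comparisons, with groups that overlapped. Its other probe was much dimmer and gave -0.50 ± 0.27 with the cluster and -0.45 ± 0.31 with miR-155 in dataset A. It was detected there on 2 of 3 cluster and 1 of 2 miR-155 arrays. In dataset B, detected on 9 of 9 arrays, it gave 0.03 ± 0.23 with the cluster and -0.43 ± 0.23 with miR-125a. Cenpf, a large protein of the outer kinetochore, had 5.09, 4.85 and 4.56 with the cluster in dataset B, against 4.47, 4.52 and 4.69 with the empty vector. As it was detected on 2 of 3 cluster arrays and on 0 of 3 empty-vector arrays, its level with the empty vector is only a bound and no fold is given (adjusted p = 0.586). A second Cenpf probe, slightly brighter in dataset B, was detected on 2 of 3 cluster, 3 of 3 miR-125a and 1 of 3 empty-vector arrays. It gave 0.33 ± 0.17 with the cluster and 0.58 ± 0.17 with miR-125a, and was not called when every probe was tested. Ndc80, which links kinetochores to microtubules, was among the lowest changes in dataset B. Its levels were 8.40, 7.98 and 8.38 with the cluster and 8.31, 8.40 and 7.85 with miR-125a, against 8.58, 8.13 and 8.43 with the empty vector (-0.13 ± 0.18 and -0.19 ± 0.18, groups overlapping).

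For the kinesins and spindle proteins, 6 of 7 genes were tested (Kif11, Kif22, Kif2c, Kif4, Tpx2 and Nusap1) and 0 passed. Kif11 (Eg5), the motor that pushes spindle poles apart, had 8.11, 7.70 and 8.18 with the cluster against 8.24, 8.41 and 8.18 with the empty vector in dataset A. The groups touched without overlapping, at a change of -0.28 ± 0.18 (adjusted p = 0.804). In dataset B its changes were -0.04 ± 0.14 with the cluster and 0.03 ± 0.14 with miR-125a. By the brightest probes, 5 of the 6 genes had a negative change with miR-155 and 1 (Kif2c) a positive one, with a median of -0.10. With miR-125a the split was 1 negative and 5 positive, with a median of 0.07.

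Of the genes of chromosome structure and anaphase, Top2a, Cdc20, Ube2c and Espl1 were tested in dataset A and Pttg1 also in dataset B, and 0 passed. Top2a, the topoisomerase that untangles sister chromatids, had the lowest change of any mitosis gene in both comparisons of dataset A. Its levels were 10.04, 10.05 and 10.42 with the cluster and 10.16 and 10.15 with miR-155, against 10.53, 10.53 and 10.73 with the empty vector. Neither vector group overlapped the empty vector, and the changes of -0.43 ± 0.17 and -0.44 ± 0.19 did not pass (adjusted p = 0.462 and 0.471). Top2a in dataset B had 9.33, 9.45 and 9.17 with the cluster, 9.35, 9.32 and 9.59 with miR-125a, and 9.76, 9.34 and 9.26 with the empty vector, with overlapping groups (-0.14 ± 0.15 and -0.03 ± 0.15). Cdc20, the activator of the anaphase-promoting complex, had 9.97, 10.12 and 10.01 with the cluster, 10.02 and 9.94 with miR-155, and 10.06, 9.95 and 9.93 with the empty vector in dataset A. In dataset B it had 10.07, 9.89 and 10.08 with the cluster, 10.25, 9.96 and 10.24 with miR-125a, and 10.08, 10.02 and 10.05 with the empty vector. By the brightest probe its changes were between -0.04 and 0.10 in the 4 comparisons, and its groups overlapped in each. Its other probes, detected on all arrays, gave 0.07, 0.28 and 0.18 with the cluster and 0.32, 0.15 and 0.47 with miR-155 in dataset A. In dataset B they gave -0.04, 0.07 and -0.30 with the cluster and -0.24, 0.003 and -0.23 with miR-125a.

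Ube2c, the ubiquitin-conjugating enzyme of the same complex, had the highest change with the cluster in dataset B. Its levels there were 6.70, 6.71 and 6.67 with the cluster and 6.22, 6.24 and 6.21 with miR-125a, against 6.52, 5.82 and 6.55 with the empty vector. The 3 cluster arrays lay above all others, with a change of 0.39 ± 0.17 from the empty vector (adjusted p = 0.508), and empty-vector array 5 lay apart from the other two. In dataset A, Ube2c had 5.56, 5.55 and 4.56 with the cluster, against 4.55, 5.02 and 5.10 with the empty vector, and was detected on 2 of 3 and 3 of 3 of these arrays. The change of 0.33 ± 0.27 there was that of overlapping groups (adjusted p = 0.878). Pttg1 (securin), the inhibitor of separase, was detected on 1 of 3 cluster, 0 of 3 miR-125a and 2 of 3 empty-vector arrays in dataset B, so that its level with miR-125a is only a bound. Espl1 (separase), which cuts cohesin, had 6.84, 6.81 and 6.84 with miR-125a against 6.74, 7.19 and 7.01 with the empty vector (-0.15 ± 0.14, groups overlapping).

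Of the genes of the central spindle and cytokinesis, Kif23, Prc1, Anln and Ect2 were tested and 0 of 4 passed in any comparison. Anln (anillin), a scaffold of the contractile ring, had 9.29 and 9.57 with miR-155 against 9.54, 9.85 and 9.91 with the empty vector in dataset A (groups overlapping, -0.34 ± 0.22, adjusted p = 0.728). In dataset B it had 7.98, 8.57 and 8.39 with the cluster and 8.26, 8.53 and 8.37 with miR-125a, against 8.12, 8.04 and 8.03 with the empty vector. All miR-125a arrays, and 2 of the 3 cluster arrays, lay above the empty vector, by 0.32 ± 0.15 and 0.25 ± 0.15 (adjusted p = 0.492 and 0.660). Kif23, the motor of the centralspindlin complex, had 10.14 and 10.11 with miR-155 against 10.12, 10.53 and 10.59 with the empty vector (groups overlapping, -0.29 ± 0.20, adjusted p = 0.764). All 4 genes had a negative change with miR-155, with a median of -0.21, and all 4 a positive change with the cluster in dataset B, with a median of 0.11. These directions are those of the brightest probes and rest on changes that did not pass the test. Ect2 lay near background in dataset A, detected on 1 of 2 miR-155 and 3 of 3 empty-vector arrays. With miR-155 the other tested Anln probe gave 0.34 ± 0.21, but it was dim and detected on 3 of 8 arrays of dataset A. The other Kif23 probes gave 0.08, 0.22 and -0.17 with miR-155. With the cluster in dataset B the same Anln probe gave 0.10, and the brighter of the other Kif23 probes gave -0.17 and 0.003. The dimmest Kif23 probe was detected there on 3 of 3 cluster and 0 of 3 empty-vector arrays, so no fold is given.

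**Figure D4:**
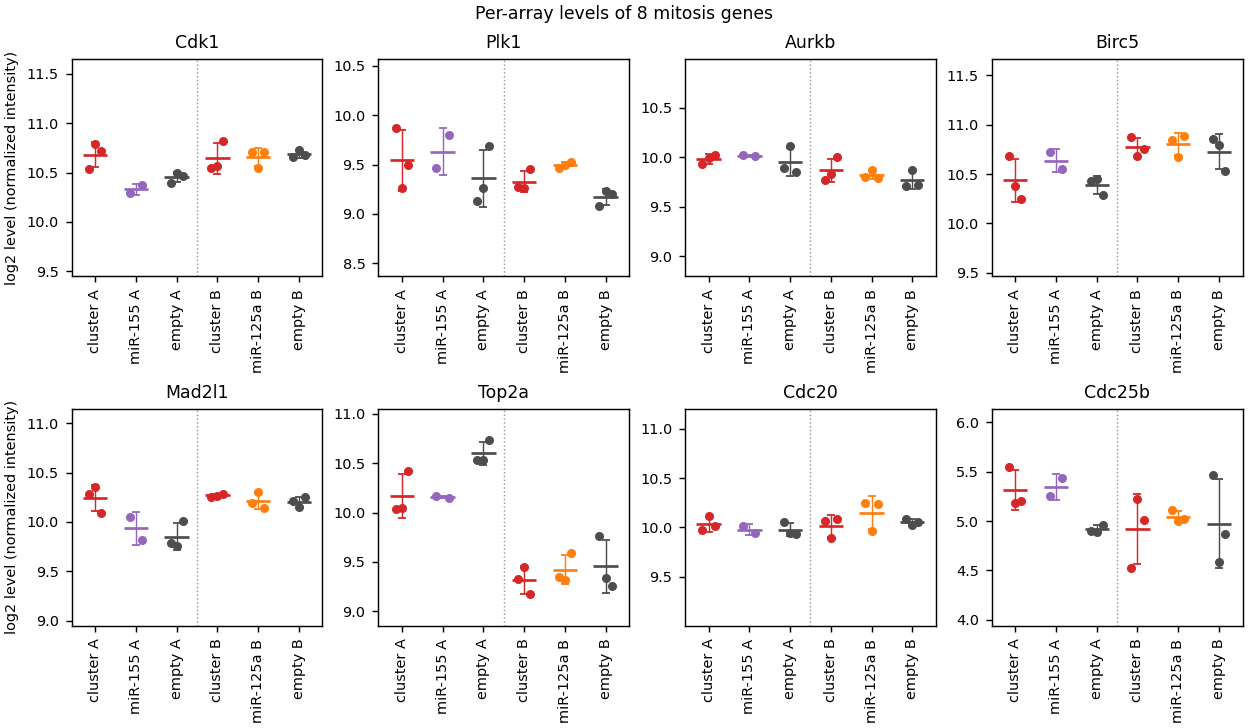
Log2 level (y axis) of 8 mitosis genes on each array (points), with the group mean (line) and SD (bar), for cluster, miR-155 and empty-vector arrays of dataset A (left of the dotted line) and cluster, miR-125a and empty-vector arrays of dataset B (right of it). Each panel spans 2.2 log2 units; Top2a lies lower with both vectors of dataset A than with its empty vector, and Cdc20 and Aurkb overlap everywhere.

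Mitosis genes whose arrays all lay on one side of the empty-vector arrays were counted beside all genes. With the cluster in dataset A, 4 of 31 lay wholly above (Cdc25b, Mad2l1, Aurka and Cdk1) and 2 wholly below (Kif11 and Top2a), which is 12.9% and 6.45%, against 6.36% and 6.62% of all genes. With miR-155, 3 lay above (Cdc25b, Bub3 and Birc5) and 4 below (Cdk1, Ttk, Cenpf and Top2a), which is 9.68% and 12.9%, against 11.6% and 12.5%. With the cluster in dataset B, 5 of 32 lay above (Ube2c, Bub1b, Plk1, Cdca8 and Mad2l1) and 0 below, against 10.3% and 5.81% of all genes. With miR-125a, 4 lay above (Anln, Plk1, Cdca8 and Bub1b) and 0 below, against 10.1% and 5.32%. Both comparisons of dataset B use the same empty-vector arrays, of which arrays 4 and 5 were each the lowest of all 9 arrays for 7 of 32 mitosis genes.

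The cluster was measured in both datasets, which share no array, and the 2 sets of changes were tested against each other. Of the 31 mitosis genes tested in both, 17 had the same sign in both (54.8%), against 53.7% of 8961 genes. The difference of the cluster effect, dataset A minus dataset B, passed for 0 of 31 mitosis genes and 0% of all genes in limma, with 1 mitosis gene and 5.51% of all genes (494) at an unadjusted p under 0.05. That gene was Cenpf (adjusted p = 0.869), for which no size is given, as its empty-vector level in dataset B is only a bound. For Mad2l1 the difference was 0.33 ± 0.18, for Top2a -0.32 ± 0.23 and for Cdc25b 0.43 ± 0.30. For Ube2c, positive in both datasets, it was -0.09 ± 0.36.

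Vectors were also compared directly within each dataset. Between the cluster and miR-155, 0 of 31 mitosis genes passed, against 0.868% of all genes. The 3 with an unadjusted p under 0.05, against 10.3% of all genes, were Kif4, a chromosome-bound kinesin (0.45 ± 0.20), Kif23 (0.44 ± 0.20) and Bub3 (-0.44 ± 0.19), with adjusted p of 0.456, 0.456 and 0.417. These are values of the brightest probes. Against the empty vector, the other Kif4 probes gave 0.17 and -0.12 with the cluster, and 0.19 and -0.31 with miR-155. The other Kif23 probes gave 0.08, 0.10 and 0.02 with the cluster, and 0.08, 0.22 and -0.17 with miR-155. For the other tested Bub3 probe the values were 0.01 and 0.08. The intervals lay within 2-fold for 30 of the 31 genes (94.1% of all genes). Ube2c was the exception, with an interval from -0.24 to 1.06 on the log2 scale. Between the cluster and miR-125a, which the cluster contains, 0 of 32 mitosis genes and 0% of all genes passed in limma. Ube2c was the 1 mitosis gene with an unadjusted p under 0.05 (4.55% of all genes), at 0.47 ± 0.17 with an interval from 0.08 to 0.86 (adjusted p = 1.00). All 32 intervals lay within 2-fold (97.7% of all genes).

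Further probes allowed a second reading of some genes. In dataset A, 23 other probes of 15 mitosis genes were detected on enough arrays, and in dataset B 22 of 15. Their changes had the sign of the brightest probe in 14 of 23 cases with the cluster and 12 of 23 with miR-155 in dataset A, and in 12 of 22 with the cluster and 12 of 22 with miR-125a in dataset B. No mitosis probe was called when every probe was tested. The second Mad2l1 probe gave 0.31 ± 0.18 with the cluster in dataset A, beside 0.39 for the brightest. The other Top2a probes gave -0.01 and -0.06 there, beside -0.43, and -0.18 and -0.10 with miR-155, beside -0.44. In dataset B the brighter of these other Top2a probes gave -0.34 ± 0.15 with the cluster, beside -0.14. With miR-125a it gave -0.36 ± 0.15, beside -0.03. A dimmer Cdc25b probe was tested in dataset B only. It was detected on 3 of 3 cluster, 0 of 3 miR-125a and 0 of 3 empty-vector arrays. Its empty-vector level is thus only a bound and no fold is given, though it remains in the sign counts above. The widest gaps between probes of a gene were 0.57 (Cenpa, cluster in dataset A), 0.68 (Anln, miR-155) and 0.48 (Cenpa, miR-125a). In dataset A these rest on dim other probes, detected on 6 of 8 (Cenpa) and 3 of 8 (Anln) arrays. With the cluster in dataset B the widest gap was that of the dimmer Cdc25b probe, so no size is given.

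**Figure D5:**
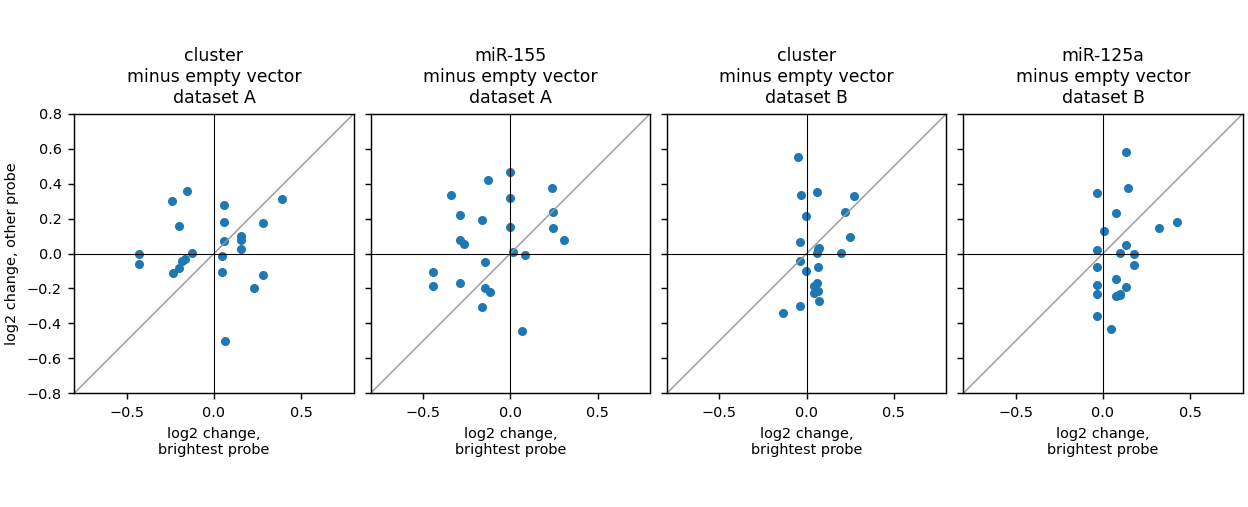
Log2 change from the empty vector of each further detected probe of a mitosis gene (y axis) against that of the gene's brightest probe (x axis), in the 4 comparisons; the diagonal marks equal values. Points lie in all 4 quadrants, with equal signs in 14 of 23, 12 of 23, 12 of 22 and 12 of 22 cases.

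Other genes of division were read from lists around the mitosis genes. With the cluster in dataset A, 0 of 19 condensin and cohesin genes, 0 of 13 genes of the anaphase-promoting complex and its inhibitors, 0 of 32 further kinetochore and spindle genes, 0 of 19 G1 cyclin and CDK genes and 0 of 32 DNA replication genes passed. The same lists gave 0 calls with miR-155, with the cluster in dataset B and with miR-125a. Their medians lay between -0.10 and 0.11 in all 4 comparisons. The furthest members in these comparisons were not past the threshold either, such as Gins1 of the replicative helicase, at -0.55 ± 0.17 with the cluster in dataset A (adjusted p = 0.249) and 0.50 ± 0.22 with miR-125a (adjusted p = 0.466). Ccnd1 (cyclin D1), a G1 cyclin, gave 0.41 ± 0.20 and 0.44 ± 0.12 with the cluster in datasets A and B (adjusted p = 0.659 and 0.315).

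One regulator of cell cycle transcription changed. E2f2, an E2F transcription factor of S phase genes, had 7.92, 8.04 and 8.33 with the cluster and 8.45 and 8.35 with miR-155, against 9.47, 8.72 and 9.52 with the empty vector, in dataset A. All vector arrays lay below all empty-vector arrays. E2f2 fell with the cluster by 2.21-fold (log2 change -1.14 ± 0.21, adjusted p = 0.0125), the 1 call among 20 regulators tested. The call held in 9 of 17 alternative settings, with log2 changes from -1.41 to -0.93, and was lost in 8. Among these were leaving out empty-vector array 1 (-1.02, adjusted p = 0.0796) or 3 (-0.998, 0.115), and cluster array 1 (-1.05, 0.0587) or the cluster array without a number (-1.11, 0.0763). With miR-155, E2f2 gave -0.84 ± 0.23 (adjusted p = 0.133), and in dataset B by -0.48 ± 0.20 with the cluster and -0.38 ± 0.20 with miR-125a (adjusted p = 0.473 and 0.534). Dataset A minus dataset B, its cluster effect gave -0.64 ± 0.32 (adjusted p = 0.869). The other regulators, among them Foxm1, Mybl2 and the Rb family, gave 0 calls in the 4 comparisons.

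Markers of mature cells moved in dataset A while the mitosis genes did not pass. With the cluster, 4 of 13 neutrophil maturation genes fell (Ltf, Camp, Itgb2l and Ngp; median log2 change over the 13 of -0.66), as did 2 of 4 eosinophil genes (Prg2 and Prg3), beside 0.643% of all genes called. Of the 13 maturation genes 3 had a positive change, up to 0.70, and of the 4 eosinophil genes 1 did, at 0.15. Of 7 primary granule genes 1 fell (Fcnb), while 5 had a positive change, up to 0.64, and the median was 0.02. With miR-155, 6 of 13 neutrophil maturation genes (median -0.73), Fcnb, 2 of 9 monocyte genes (Adgre1 and Ly86) and 1 of 8 mast cell genes (Fcer1a) fell, and 1 of 5 erythroid genes (Car2) rose, beside 1.05% of all genes called. The other way went 1 of 13 maturation genes (0.18) and 2 of 8 mast cell genes, up to 0.24. Of the 5 erythroid genes 3 had a positive and 2 a negative change, down to -0.48, so neither list moved as a whole in one direction. Of the 7 primary granule genes, 2 had a positive change with miR-155 and the median was -0.24. The summed intensity of the neutrophil maturation genes was 32704 to 36144 with the cluster and 30174 to 35962 with miR-155, against 44321 to 56454 with the empty vector. Of these 13 genes, 0 were undetected on all cluster arrays, and Retnlg and Mmp9 were undetected on both miR-155 arrays. In dataset B, 0 genes of any cell type list passed with either vector, and the summed intensity was 32556 to 90166 with the cluster and 33525 to 105183 with miR-125a, against 41777 to 48598 with the empty vector, where Retnlg was undetected on all arrays. The part of cell composition in the E2f2 and mitosis gene values was not tested. All 5 pan-leukocyte genes (Ptprc, Spi1, Coro1a, Lcp1 and Vav1) were detected on every array.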

How the data were processed

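Gene expression was measured on 17 single-colour Illumina arrays from 100 ng of total RNA each. The intensity values are mean bead signals, deposited without normalization and and the submitters' processing notes name GenomeStudio, without a version. Detection p-values were deposited beside them, per the file headers. As an alternative served the log2 values that were deposited in the series matrix. The sources used here do not give how they were made.

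Groups came from the sample titles. A cluster column of dataset A whose header repeats that of array 1 was used as a cluster array without a number, together with the detection column headed cluster array 2, the only one of the group not used by another array. Only 2 miR-155 arrays were analysed here. Of 136 pairs of arrays, 0 held identical values. As the labels name no separate cultures, p-values measure the spread between these samples, which may be technical. The number of arrays limits the precision.

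Background was corrected in limma 3.58.1 (R 4.3.3, data.table version 1.17.8) by normexp, with the negative controls estimated from the detection p-values and an offset of 16. Each dataset was then quantile-normalized on its own. The platform annotation gave 1 gene symbol for 34885 probes, several for 18 and none for 10378. Gene IDs of 34807 matched the GRCm38.p6 gene list, and 0 symbols changed. A gene was tested where its probe of highest mean log2 intensity over all arrays was detected (p under 0.05) on 2 or more arrays of dataset A, or 3 or more of dataset B. One limma model per dataset (lmFit, eBayes) held all its groups, with Benjamini-Hochberg adjustment over all genes tested and calls at an adjusted p under 0.05. The difference of the cluster effect was an interaction contrast over the empty-vector and cluster arrays of both datasets, normalized together. The code was tested on simulated data. Sequences were read with Python 3.11.15 and pandas 2.3.3.

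The mitosis genes and the lists were chosen with earlier results of these data known. Per-array values are given for Cdk1, Plk1, Aurkb, Top2a, Birc5, Cdc20 and Mad2l1 (Ccnb1 would have been added), and for the 3 highest and 3 lowest changes of each comparison with the empty vector, as none was called. Other mitosis genes, such as Cdc25c, Cenpa, Kif2c and Kif4, were named after their values were seen. Of each other list, called genes or the 2 of largest change could be named.

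In dataset B the deviations of empty-vector and cluster arrays of the same number correlated weakly, at 0.12, 0.19 and 0.18. In dataset A, with numbers from the series matrix, the correlations were -0.19, -0.02 and 0.36. The labels do not say that a number marks a shared culture. The main fits therefore held no block, and a replicate block served only as an alternative.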

Additional observations from a re-analysis of the deposited data

How the results depend on the processing

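Of 110 combinations of a comparison and an alternative (no background correction, median scaling, other filters, every probe, the deposited log2 values, array weights, another variance prior, a replicate block, or 1 array left out), 109 called 0 mitosis genes. The exception was median scaling for miR-125a, which called 8 of 32 mitosis genes (25%) and 18.8% of all genes (1769), and moved the median of all genes to 0.48. Plk1 (0.89), Anln (0.89) and Ttk (0.80) were then past the threshold. Relative to all genes, the median of the mitosis genes was 0.07 higher there.

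Median scaling moved the median log2 change of the mitosis genes to -0.091 with the cluster in dataset A (all genes -0.08), -0.38 with miR-155 (all genes -0.31), 0.35 with the cluster in dataset B (all genes 0.32) and 0.55 with miR-125a. It was 0.29 for the cluster against miR-155 (all genes 0.23), -0.18 for the cluster against miR-125a (all genes -0.16) and -0.52 for the difference between datasets (all genes -0.41). The cause was not tested. Leaving out 1 array gave medians from -0.025 to 0.067 with the cluster in dataset A, highest without empty-vector array 2, from -0.05 to 0.00 with miR-155, from 0.02 to 0.07 with the cluster in dataset B and from 0.041 to 0.088 with miR-125a, highest without empty-vector array 4. The E2f2 call was also lost without background correction (adjusted p = 0.0679), with median scaling (0.111), without the filter on dim probes (0.175) and on the deposited log2 values (0.0771).

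With a replicate block on the array numbers, 0 of 32 mitosis genes were called with the cluster in dataset B (median 0.06), and 0 of all genes. On the deposited log2 values of dataset A, the block gave 0 of 31 with the cluster (median 0.00) and 0 of 31 with miR-155 (median -0.02). There, empty-vector arrays 1 and 2 did not correlate best with the cluster array of their own number. The block changed no other call of a mitosis gene. Chosen after seeing the data, leaving out genes undetected in a group of the comparison gave medians of 0.06 with the cluster in dataset B and 0.05 with miR-125a.

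Genes near background, such as Cenpf, Pttg1, Ube2c, Cdc25b and Ect2, limit what the values of single arrays show, and 7 genes with a probe could not be tested.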
